A study of Rattus norvegicus with 2 samples.

Results

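The genes described here build and serve cilia and centrosomes. They were chosen by name from the deposited gene table: symbols that begin with Bbs, Ift, Nphp or Cep and a digit, together with Ttc8, Arl6, Mkks, Rpgr, Rpgrip1, Tulp1, Rp1, Prom1, Rom1 and Cdhr1. The rule found 68 of 32662 genes. They were divided into 5 families: 11 BBS genes (the Bbs symbols with Ttc8, Arl6 and Mkks), 14 IFT genes, 3 NPHP genes, 33 CEP genes and 7 genes of the photoreceptor cilium and outer segment. Retinas came from female Long-Evans rats of 2 months. The CTRL library was made from a retina after a sham procedure, and the IR12 library from a retina taken 12 hours after reperfusion that followed ischemia. There was 1 library in each group, so no difference given here has a replicate check and no test was made. Levels are FPKM, reads per length of transcript and size of library, and differences are log2 ratios of (FPKM + 1), IR12 over CTRL, which makes the differences of weakly expressed genes look smaller.

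A cilium grows from a centriole that docks at the cell surface as a basal body, and CEP proteins build and organise centrioles and their surroundings. Cargo moves along the cilium on intraflagellar transport (IFT) trains, the BBSome couples membrane proteins to these trains, and NPHP proteins sit at the transition zone, the gate at the base of the cilium. The light-sensitive outer segment of a photoreceptor is a modified cilium, joined to the cell body by a narrow connecting cilium, and inherited defects in many of these genes cause retinal degeneration.

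As deposited, most of these genes had similar levels in both libraries, and 3 of them stood well above the line of equal levels. Of the 68 genes, 66 reached an FPKM of 1 in either library and entered the comparison, and none of the 66 entered through IR12 alone. The other 2 were Cep55, which had 0.199 in CTRL and 0.0664 in IR12, and Cep72, listed at 0 in CTRL and with FPKM of 0.0580 in IR12. Ift57, Nphp4 and Prom1 were at least 2-fold higher in IR12, which makes 3 of 66, beside 6.56% of the 13599 genes that entered, 641 of which did so through IR12 alone. Where FPKM in CTRL was 5 or more, the counts were 2 of 62 and 319 of 9640, which are similar shares. None of the 66 was at least 2-fold lower, compared with 6.12% of all genes, although Cep295nl passed that limit with a pseudocount of 0.1. With Ift43 added, 4 of 66 were at least 1.5-fold higher, beside 14.8% of all genes. Cep126 and Cep295nl, 2 of 66, were at least 1.5-fold lower, beside 13.7% of all genes. In tissue of many cell types, fewer cells of a type and less RNA in each of them cannot be told apart where a gene was lower, nor can more of either where it was higher. On the TPM scale, where the FPKM of both libraries are brought to the same sum, Cep126 was no longer lower, with a log2 ratio of 0.00. On that scale 10 of the 66 genes were at least 2-fold higher and 33 at least 1.5-fold higher. Over all 13599 genes, these counts were 2817 and 6897. Levels, ratios and counts of genes elsewhere are as deposited unless another scale is named.

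**Figure D1:**
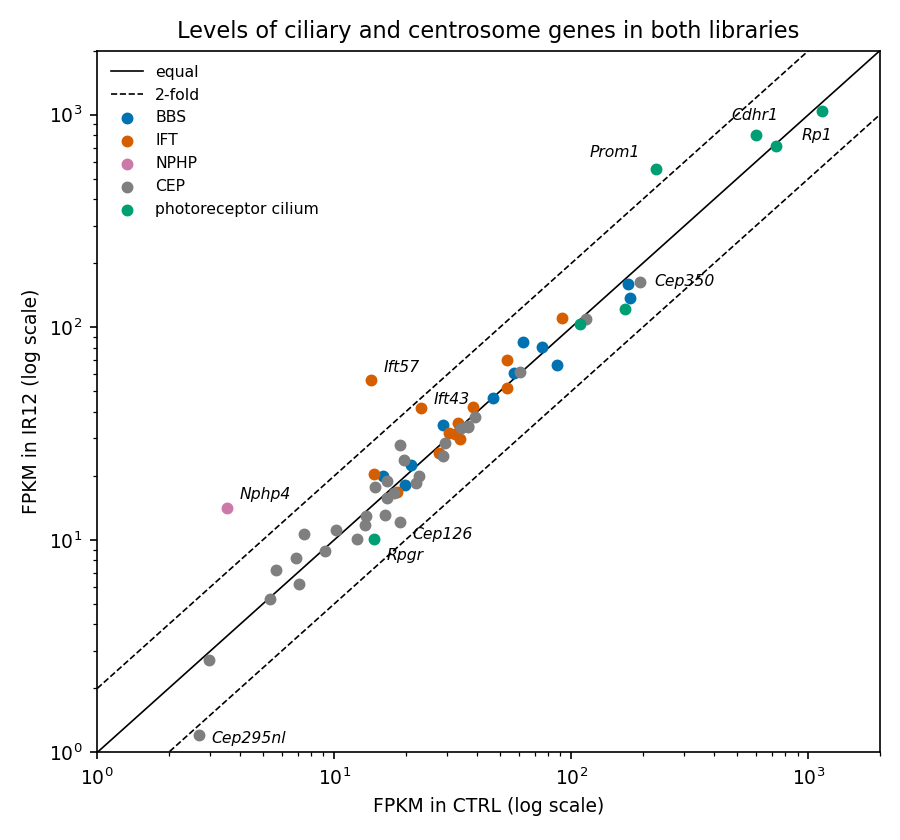
FPKM of genes of the rule in CTRL (horizontal axis, log scale) and IR12 (vertical axis, log scale), colored by family, with a solid line of equal FPKM and dashed lines of 2-fold difference before any pseudocount. Ift57, Nphp4 and Prom1 lie above the upper dashed line, and Cep295nl, with FPKM of 2.68 and 1.21, lies below the lower one.

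The log2 ratios of these genes were also spread over a narrower range than those of all genes. Their quartiles were -0.13 and 0.24 around a median of -0.04, while those of all genes were -0.32 and 0.36 around a median of 0.02. In total, 9.09% of the 66 genes and 28.4% of all genes were past 1.5-fold in either direction. Where FPKM in CTRL was 5 or more, 4 of 62 genes of the rule (6.45%) and 24.6% of 9640 genes were past this limit. Among the most abundant genes, at an FPKM of 100 or more in CTRL, the counts were 1 of 10 and 358 of 976 (36.7%). These shares describe 2 libraries and do not show that the genes differ from others. All genes include small RNAs, which take 67.9% of the summed FPKM in CTRL and 46.2% in IR12. Shares without small RNAs were not computed.

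**Figure D2:**
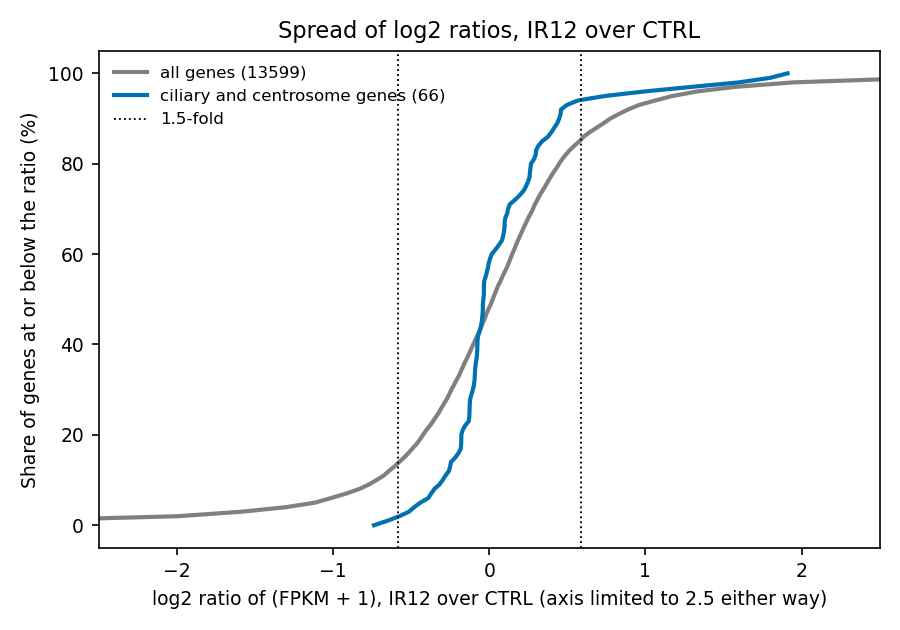
Share of genes (vertical axis, percent) at or below each log2 ratio (horizontal axis) for the 66 genes and for all 13599 genes that entered, with dotted lines at 1.5-fold. The curve of the 66 genes is steeper between the dotted lines, which enclose 90.9% of them and 71.6% of all genes.

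The direction of small differences depended on the scale. The TPM scale, whose sums include the small RNAs, raised IR12 against CTRL by 0.65 on the log2 scale. Rescaling to the same sum without small RNAs lowered it by 0.10. As deposited, 39 of the 66 genes were lower in IR12, beside 6551 of all 13599 genes. Of the 66, 26 lay above the median of all genes as deposited and 32 on the TPM scale, where 50% of all genes lie by construction. The TPM scale moved the median of all genes from 0.02 to 0.59 and that of the 66 genes from -0.04 to 0.59. On it 1 of the 66 was lower in IR12, beside 2135 of the 13599 genes. Relative to the median of all genes on that scale, 3 of the 66 were at least 2-fold higher, none was 2-fold lower and 9.09% were past 1.5-fold, against 29.4% of all genes. Over all genes, 892 were at least 2-fold higher and 832 lower as deposited, and 2817 and 436 on the TPM scale.

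Promoter sequences are shown because many cilium genes carry the X-box, the element bound by the RFX factors, which are known regulators of ciliary genes. RefSeq promoters of the GRCr8 assembly, 250 bases before to 50 bases after the start of transcription, were matched by symbol to 57 of the 68 genes, and the first one listed was used for each gene. The full X-box was written as GTTNCC followed by GGNAAC with 0 to 3 bases between them, and a single arm as GTTNCC on either strand, so that a full X-box also holds an arm on each strand. An arm was found in 41 of the 57 promoters (71.9%), in 45.7% of all 27457 promoters and in 45.2% of the 19005 promoters of protein-coding genes. By family it was found in 9 of 10 BBS, 17 of 29 CEP and 4 of 6 photoreceptor cilium promoters. The IFT and NPHP families had promoters for fewer than 80% of their genes, so the same count is void for them. The median GC content was 58.7% in the 57 promoters and 55.3% in those of protein-coding genes.

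Near the start of transcription, arms were found in a larger share of these promoters than of those of protein-coding genes. An arm began within 50 bases on either side of the start in 27 of the 57 promoters (47.4%), and in 18.3% of the promoters of protein-coding genes. The full X-box, as written above, was found in the promoter of Arl6 and in 0.841% of all promoters. Looser forms were not searched, so other promoters of the 57 may hold an X-box. That of Cep112, for example, has an arm at base -164, followed by a near match to the second arm that the pattern does not count. TAATCC, the core bound by the photoreceptor factor CRX, was found on either strand in 6 of the 57 promoters (10.5%) and in 7.11% of all promoters. By family it was found in none of 10 BBS, 4 of 29 CEP and none of 6 photoreceptor cilium promoters. A match of this kind is a run of letters and not a measured binding site.

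**Figure D3:**
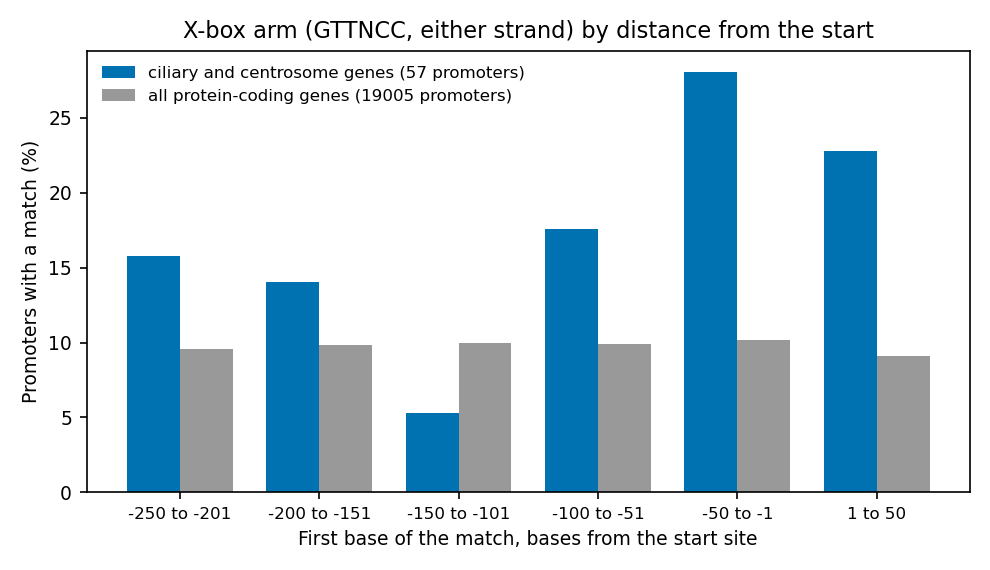
Percent of promoters (vertical axis) with an X-box arm whose first base lies in each window of 50 bases, by distance from the start of transcription (horizontal axis, bases), for 57 promoters of the genes described and 19005 of protein-coding genes. The blue bars reach 28.1% in the 50 bases before the start and 22.8% in the 50 after it, where the gray bars are at 10.2% and 9.10%.

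Stretches around these matches are given for Arl6 with its full X-box, for Ift81 with an arm on both strands, in 2 stretches that overlap, for Cep290 with the CRX core, and for genes whose levels are described in the paragraphs on their families. Each is read from 5′ to 3′ on the strand of the gene, with the match in capitals and 10 bases on either side.
Arl6 (GRCr8, chr11:54181335-54181368, plus strand): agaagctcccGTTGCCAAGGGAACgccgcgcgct
Bbs5 (GRCr8, chr3:74818591-74818616, plus strand): aagccgatgcGTTGCCttggtgtcca
Ift81 (GRCr8, chr12:39618601-39618626, plus strand): atcactgcatGGCAACcgttgccaag
Ift81 (GRCr8, chr12:39618608-39618633, plus strand): catggcaaccGTTGCCaaggagcggt
Ift43 (GRCr8, chr6:111460740-111460765, plus strand): ggagacggctGTTTCCaggaagtgac
Rpgr (GRCr8, chrX:15239183-15239208, plus strand): ctccgcctccGTTGCCcctagcgtct
Cep126 (GRCr8, chr8:13552229-13552254, minus strand): gttccgcctgGTTTCCgtcgcgaagg
Cep290 (GRCr8, chr7:37196579-37196604, plus strand): ccaaaacttcTAATCCcagtatgcac

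Whole promoters are given for the 2 genes at least 2-fold higher in IR12 that were matched. That of Nphp4 has an arm that begins at base -224 from the start and another at base 2, both in capitals, and that of Prom1 has none of the letters searched, which says nothing of the factors that act there.
Nphp4 (GRCr8, chr5:168270823-168271122, plus strand): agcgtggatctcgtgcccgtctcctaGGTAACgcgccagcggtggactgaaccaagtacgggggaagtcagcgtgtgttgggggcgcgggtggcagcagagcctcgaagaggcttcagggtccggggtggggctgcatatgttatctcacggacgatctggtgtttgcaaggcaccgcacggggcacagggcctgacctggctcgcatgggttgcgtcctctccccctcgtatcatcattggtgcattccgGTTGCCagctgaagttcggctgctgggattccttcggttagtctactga
Prom1 (GRCr8, chr14:71202395-71202694, plus strand): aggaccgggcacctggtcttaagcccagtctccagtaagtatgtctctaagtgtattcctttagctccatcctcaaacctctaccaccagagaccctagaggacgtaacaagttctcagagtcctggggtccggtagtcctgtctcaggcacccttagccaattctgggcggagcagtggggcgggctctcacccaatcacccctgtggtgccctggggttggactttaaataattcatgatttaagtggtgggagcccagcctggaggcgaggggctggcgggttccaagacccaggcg

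The log2 ratios of genes with and without an arm overlapped. The median was -0.04 over the 41 genes with an arm and 0.01 over the 14 without one that entered, and the ranges were -0.74 to 1.74 and -0.28 to 1.27. Ift57, for which no promoter was matched, is in neither group.

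Beside subunits of the BBSome, the BBS family holds the chaperonin-like proteins that assemble it and the GTPase that recruits it to membranes. As deposited, all 11 genes were within 1.5-fold of equal levels, with a median log2 ratio of 0.08. Arl6, that GTPase, had the highest level of the family in CTRL, with FPKM of 177 there and 137 in IR12 (log2 ratio -0.36). Bbs4, a BBSome subunit, had the highest in IR12, with FPKM of 174 in CTRL and 159 in IR12. The highest log2 ratio belonged to the BBSome subunit Bbs5, with FPKM of 62.6 in CTRL and 85.3 in IR12 (log2 ratio 0.44). Bbs12 and Mkks, chaperonin-like assembly factors, came next with log2 ratios of 0.30 and 0.26. Bbs10, the other assembly factor of this kind, had FPKM of 19.95 in CTRL and 18.2 in IR12. The lowest log2 ratio was that of the subunit Bbs9, with FPKM of 87.3 in CTRL and 66.7 in IR12, at -0.38. Ttc8, the subunit also called Bbs8, had FPKM of 46.6 in both libraries. Subunits of the same complex were thus found on both sides of equal levels, Bbs5 above and Bbs9 below, as deposited. On the TPM scale all 11 were higher in IR12.

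IFT trains are built from IFT-B, which is associated with movement to the ciliary tip by kinesin-2, and IFT-A, which is associated with the return by dynein-2. Ift57, a peripheral IFT-B subunit, had the highest log2 ratio of all 66 genes. Its FPKM was 14.3 in CTRL and 56.6 in IR12, 3.95 times as high, with a log2 ratio of 1.91. It had the lowest level of the 14 IFT genes in CTRL, and in IR12 Ift172 and Ift20 were the IFT genes with a higher level. Its locus is on chromosome 11, 53664638 to 53731779 on rn6, and is listed for no other gene. It ranked 283 among 13599 genes from the highest ratio down.

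The other peripheral IFT-B genes of the rule were closer to equal levels. IFT subunits with other symbols, of IFT-A and IFT-B, are among the partner genes. Ift172, which had the highest level of the family in both libraries, had FPKM of 91.7 in CTRL and 110.6 in IR12 (log2 ratio 0.27). Ift20, a subunit that is also found at the Golgi, had FPKM of 53.5 in CTRL and 70.0 in IR12 (log2 ratio 0.38). Ift80 had the lowest log2 ratio of the family, with FPKM of 33.8 in CTRL and 29.8 in IR12 (log2 ratio -0.18). The summed FPKM of the 4 peripheral genes was 193 in CTRL and 267 in IR12, and Ift57 made up the larger part of the difference.

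The 7 core IFT-B genes of the rule were all within 1.5-fold as deposited, with a median log2 ratio of -0.02. Their summed FPKM was 216 in CTRL and 221 in IR12. On the TPM scale their median was 0.61, beside 0.59 for all genes. Ift22, a small GTPase of the core, was the highest of the 7 in ratio, with FPKM of 14.7 in CTRL and 20.5 in IR12. Ift81, whose product binds tubulin together with that of Ift74, had FPKM of 53.5 and 52.0. Ift27, the other GTPase of the core, had the lowest ratio of the 7, with FPKM of 18.3 and 16.7. Of the 3 IFT-A genes of the rule, Ift43 was the exception. It had FPKM of 23.2 in CTRL and 41.5 in IR12 (log2 ratio 0.81), while Ift122 and Ift140 had log2 ratios of 0.12 and -0.11. A 5S rRNA gene listed at 0 in both libraries has the same locus as Ift43 in the table.

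**Figure D4:**
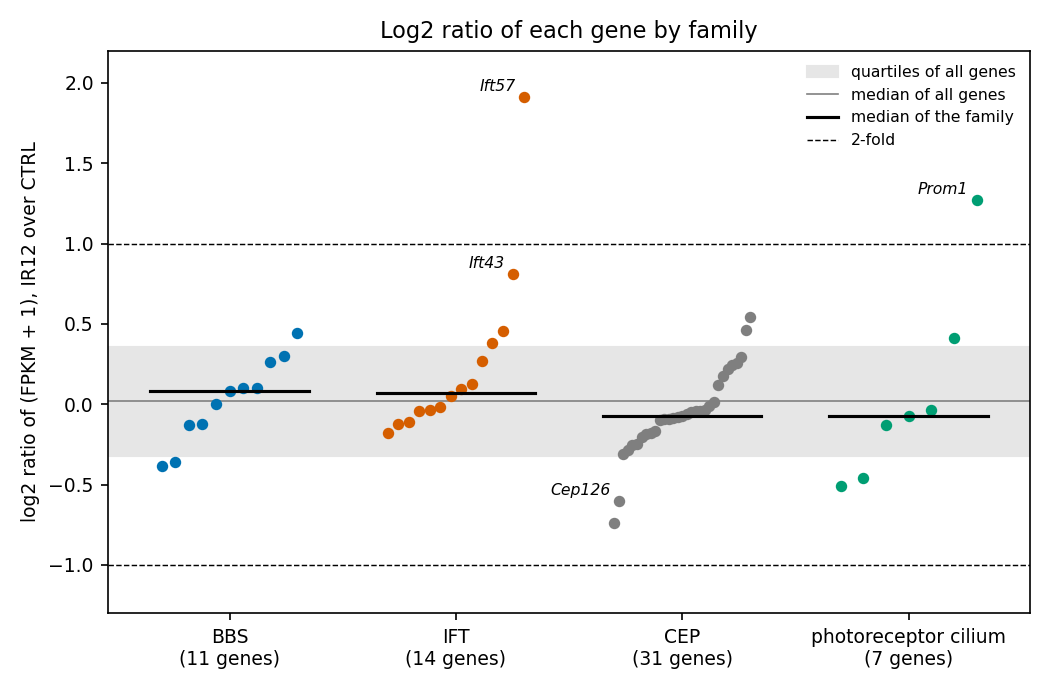
Log2 ratio of (FPKM + 1), IR12 over CTRL (vertical axis), for each gene that entered in 4 of the families, sorted within each, as deposited. Black bars are family medians, 0.08 for BBS, 0.07 for IFT, -0.07 for CEP and -0.08 for the photoreceptor cilium, and all 4 lie inside the gray band of the quartiles of all genes.

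Nphp4, a scaffold of the transition zone that binds Rpgrip1, was nearly 4-fold higher in IR12. Its FPKM was 3.54 in CTRL and 14.2 in IR12, 3.99 times as high, and its log2 ratio of 1.74 was 1.97 with a pseudocount of 0.1. It went from percentile 18.9 of the levels in CTRL to percentile 49.7 in IR12, counted over genes that reached an FPKM of 1 in the library. Its locus is on chromosome 5, 169659188 to 169744660 on rn6, and is listed for no other gene.

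Partners of Nphp4 at the transition zone and in the connecting cilium did not show a difference of that size. Rpgrip1, which anchors Rpgr in the connecting cilium, had FPKM of 168 in CTRL and 122 in IR12 (log2 ratio -0.46, or 0.18 on the TPM scale). Rpgr, a regulator of transport through the connecting cilium, had FPKM of 14.8 and 10.1, a log2 ratio of -0.51 that was 0.09 on the TPM scale. Cep290, which links membrane and microtubules at the transition zone, had FPKM of 116 and 109.

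The 4 highest levels of the 68 genes were those of Rp1, Rom1, Cdhr1 and Prom1, all genes of the outer segment, and Prom1 was the exception among them in its ratio. Prom1, which encodes a membrane protein at the base of the outer segment where new discs form, had FPKM of 229 in CTRL and 553 in IR12, 2.42 times as high, with a log2 ratio of 1.27. Its locus is on chromosome 14, 71533063 to 71637417 on rn6, and is listed for no other gene. Cdhr1, a cadherin of the same nascent discs that is known to bind Prom1 protein, had FPKM of 604 in CTRL and 803 in IR12 (log2 ratio 0.41). Prom1 was past 1.5-fold and Cdhr1 was not, and Rom1, Tulp1 and Rp1 were near equal levels as deposited. On the TPM scale Rom1, Tulp1 and Rp1 had log2 ratios of 0.61, 0.57 and 0.52, beside a median of 0.59 for all genes. Rp1, which encodes a microtubule protein of the axoneme, had the highest FPKM of all 68 genes, with 1143 in CTRL and 1045 in IR12. Rom1, a tetraspanin of the disc rim, had FPKM of 727 and 709.8. Tulp1, needed for the transport of rhodopsin, had FPKM of 109 and 104. The summed FPKM of the 7 genes of the photoreceptor cilium was 2995 in CTRL and 3347 in IR12, and 2766 and 2794 without Prom1.

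The CEP genes cover many functions, and 29 of the 31 that entered were within 1.5-fold as deposited, beside 71.6% of all genes. Their median log2 ratio was -0.07, and 22 were lower in IR12 as deposited, compared with 1 on the TPM scale. Of all 13599 genes, 6551 were lower as deposited and 2135 on the TPM scale. Relative to the median of all genes, 8 of 31 lay above it as deposited and 21 lay below it on the TPM scale. Cep350, a large protein that stabilises microtubules at the centrosome, had the highest level, with FPKM of 195 in CTRL and 164 in IR12 (log2 ratio -0.25).

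Genes of the family with higher levels in IR12 included Cep68, Cep295 and Cep41. Cep68, a linker between centrioles, had FPKM of 7.44 in CTRL and 10.6 in IR12 (log2 ratio 0.46). Cep295, needed to convert new centrioles into centrosomes, had FPKM of 5.69 and 7.21. Cep41, which is needed for the glutamylation of ciliary tubulin, had FPKM of 19.6 and 23.6. None of these 3 reached 1.5-fold.

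At the other end, Cep126 had FPKM of 18.9 in CTRL and 12.1 in IR12 (log2 ratio -0.60). Its product binds microtubules at the base of the cilium. Cep162, which helps to assemble the transition zone on the axoneme, followed with FPKM of 16.4 and 13.0 and a log2 ratio of -0.31. Cep250, the centriole linker protein also called C-Nap1, had FPKM of 12.5 and 10.1. These 3 genes had log2 ratios of 0.00, 0.29 and 0.31 on the TPM scale, below its median of 0.59. Among the genes for centriole duplication and the material around centrioles, 12 entered and all 12 were within 1.5-fold as deposited, with a median of -0.05. The 9 genes of the distal appendages and the basal body had a median of -0.09.

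Partner genes outside the rule were also looked at. Of 25 genes of motors, adaptors and further IFT subunits, 24 entered, with a median log2 ratio of -0.07. Of these, 1 was at least 2-fold higher and none was 2-fold lower, beside 6.56% and 6.12% of all genes. Bbip1, the small subunit of the BBSome also called Bbs18, was the gene past 2-fold, with FPKM of 65.5 in CTRL and 133 in IR12. Unc119, which carries lipid-modified proteins to the outer segment, was the most abundant, with FPKM of 492 and 507. Arl3, the GTPase that releases such cargo in the cilium, had the lowest log2 ratio, -0.47, with FPKM of 57.7 and 41.4.

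At the transition zone, 17 of 20 partner genes entered and none was past 2-fold, with a median of -0.03. Cc2d2a, a component of the gate itself, had the lowest log2 ratio, -0.83, with FPKM of 125 in CTRL and 70.0 in IR12. Spata7, needed for the connecting cilium of photoreceptors, had the highest, 0.52, with FPKM of 36.4 and 52.6. Tmem237 was the most abundant in CTRL, with FPKM of 186 there and 135 in IR12. Of the centriole partners, 15 genes entered with a median of -0.06 and none was past 2-fold. Cdk5rap2, which recruits the complexes that start microtubules, had FPKM of 17.8 and 9.51, a log2 ratio of -0.84. Odf2, an appendage protein of the mother centriole, had the highest ratio, 0.48, with FPKM of 27.1 and 38.2. Cetn2, a centrin found in the connecting cilium, was the most abundant, with FPKM of 146 and 107.

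Of the partners in the photoreceptor cilium, 10 entered and 6 were past 1.5-fold, 3 in each direction around a median of -0.08, beside 28.4% of all genes. Mak, a kinase of the connecting cilium that is known to act on Rp1, had FPKM of 96.3 in CTRL and 250 in IR12 (log2 ratio 1.36). Ush1c, the scaffold harmonin, had FPKM of 8.58 and 1.64, a log2 ratio of -1.86. Pcdh15, a cadherin that harmonin is known to bind, had FPKM of 44.5 and 21.4, a log2 ratio of -1.02. Both were also lower on the TPM scale, with log2 ratios of -1.33 and -0.39. Abca4, the retinoid transporter of the disc rim, was the most abundant, with FPKM of 334 and 328.

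Of 10 transcription factors of cilia and photoreceptors that were matched, 7 entered, with a median of -0.23, and none was past 1.5-fold. Crx, the factor of photoreceptors, had the highest level, with FPKM of 96.8 in CTRL and 95.5 in IR12. Nrl, the factor of rods, had the lowest log2 ratio, -0.45, and Rfx1 the highest, 0.24, with FPKM of 2.10 and 2.65. Otx2 and Rfx4 were listed at 0 in both libraries, and such an entry was not taken as evidence of a silent gene.

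**Figure D5:**
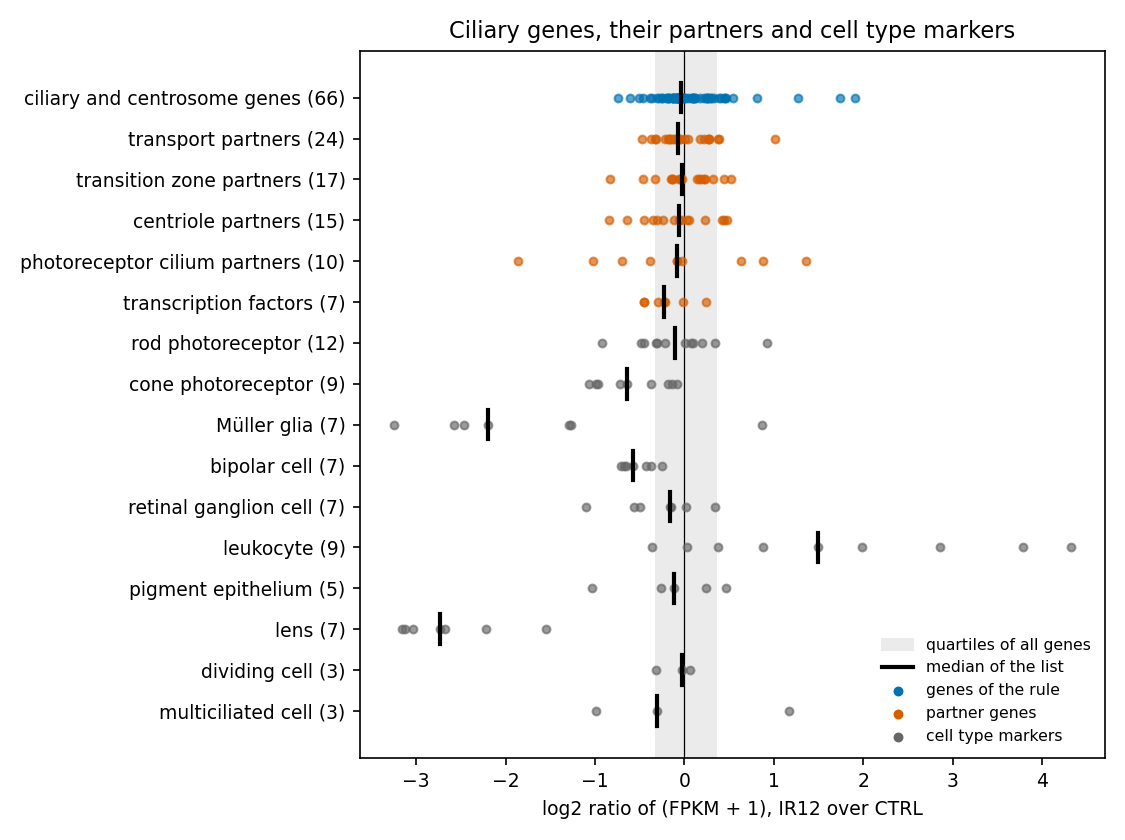
Log2 ratio of (FPKM + 1), IR12 over CTRL (horizontal axis), for the 66 genes, the partner lists and the cell type marker lists (rows, with the number of genes that entered), as deposited. Black bars are list medians, which reach -2.73 for lens, -2.19 for Müller glia and 1.497 for leukocytes, of which 5 of 9 entered through IR12 alone, while those of the ciliary genes and of the transport, transition zone, centriole and photoreceptor cilium partners lie between -0.08 and -0.03.

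Markers of rods were abundant in both libraries, as the label of the tissue has it. All 12 rod markers entered, with a median log2 ratio of -0.10 and none past 2-fold, and their FPKM summed to 31485 in CTRL and 30831 in IR12. Gngt1, the rod transducin gamma subunit, was the most abundant, with FPKM of 12096 in CTRL and 8644 in IR12. Sag, rod arrestin, had the highest ratio, 0.92, and Rcvrn, recoverin, the lowest, -0.92. All 9 cone markers were lower in IR12 as deposited, with a median of -0.64 and sums of 532 and 352. Opn1sw, the short-wavelength opsin, had the lowest cone ratio, -1.07, Cnga3, a channel subunit, the highest, -0.08, and Gnat2, cone transducin, the highest level, 179 in CTRL and 138 in IR12. On the TPM scale 5 of the 9 cone markers were lower.

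Markers of Müller glia and lens lay much further from equal levels than the ciliary genes, some leukocyte markers did so too, and the part of these cells in the values above was not tested. The Müller glia list had summed FPKM of 1229 in CTRL and 448 in IR12, a median log2 ratio of -2.19 and 6 of 7 genes at least 2-fold lower. These were Glul, the most abundant, with 754 and 126, Aqp4 with 48.0 and 4.16, Kcnj10 with 7.07 and 0.467, Rlbp1 with 126 and 26.8, Apoe with 65.5 and 26.1 and Slc1a3 with 108 and 44.3. Vim, the exception, had FPKM of 121 and 221. All 7 lens genes were at least 2-fold lower, with sums of 4085 and 553. The medians of both lists were also below 0 on the TPM scale, at -1.55 for Müller glia and -2.12 for lens. Cryba1, the most abundant, had FPKM of 1614 and 196, and the log2 ratios went from -3.16 for Cryaa to -1.55 for Bfsp1, with Cryab, Crybb2, Crygs and Mip between them.

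The leukocyte list had sums of 21.6 and 135. Of its 9 genes, 5 entered through IR12 alone, and were thus higher by the way they entered. Of the other 4, 3 were within 1.5-fold by the ratio of (FPKM + 1). Lyz2, the most abundant, had FPKM of 9.73 in CTRL and 76.9 in IR12. S100a9, Itgam and Ptprc were also at least 2-fold higher, with FPKM of 0.199, 0.693 and 0.408 in CTRL and 23.0, 5.71 and 2.98 in IR12, as was S100a8, listed at 0 in CTRL and with 12.8 in IR12. Cd68, with FPKM of 0.437 and 1.65, was past 2-fold only without the pseudocount. Cx3cr1 had the lowest ratio, -0.36, and its FPKM of 1.16 and 0.676 were past 1.5-fold without the pseudocount.

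All 7 bipolar cell markers were lower as deposited, with sums of 571 and 407 and log2 ratios from -0.70 for Isl1 to -0.25 for Trpm1, the most abundant, with FPKM of 189 and 159. On the TPM scale 3 of the 7 were lower. The retinal ganglion cell markers had sums of 331 and 269 and a median of -0.16, with Nefl the most abundant at 132 and 88.8, Rbpms the highest in ratio at 0.34 and Pou4f2 the lowest at -1.10. The pigment epithelium list had sums of 44.4 and 42.8 and a median of -0.12. Dct was its most abundant gene and highest in ratio, with FPKM of 17.0 and 24.0, and Rpe65 its lowest, with 11.1 and 4.88.

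Centrosome genes are also used in division and motile cilia, and most markers of both were under an FPKM of 1 in both libraries. Of 10 markers of dividing cells, 3 had FPKM of at least 1, and the list summed to 12.1 in CTRL and 10.02 in IR12. Ccna2 was the most abundant, with FPKM of 4.84 and 3.68, and its listed locus is also that of Bbs7. Aurka had the highest ratio of the 3, 0.07. Of 10 multiciliated cell markers matched, 3 had FPKM of at least 1 and the sums were 20.7 and 17.3. Ccdc39 made up most of them, with FPKM of 14.2 and 11.3, Dnah11 had 3.56 and 1.30, and Dnai2, which entered through IR12 alone, had 0.470 and 2.30. Rsph4a was listed at 0 in both.

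The position of the genes on the chromosome was looked at after their values were seen. For each gene past 1.5-fold, the nearest gene that entered was taken on either side. Next to Ift57, Cd47 had FPKM of 58.0 in CTRL and 130.0 in IR12 (log2 ratio 1.15), 89.5 kb away. Dzip3 on the other side, 646 kb away, had -0.21. Next to Nphp4, Kcnab2 lay 0.312 kb away with FPKM of 24.98 and 26.5. Ajap1 on the other side, 871 kb away, had a log2 ratio of -0.37. Next to Prom1, Tapt1 had a log2 ratio of -0.20 and Fgfbp1, 11.9 kb away, had FPKM of 0.886 and 1.34 (log2 ratio 0.31). Next to Ift43, Tgfb3 and Gpatch2l had log2 ratios of 0.10 and 0.15. The nearest gene was lower beside Cep126 on one side, where LOC654482 had -0.33. It was higher on the other, where LOC100362400, 445 kb away, had 1.31. Cep295nl, which was lower, lay between Usp36 at 0.60 and Lgals3bp at 1.82, both higher. Of these neighbors, those of Nphp4, Prom1 and Ift43 were all within 1.5-fold by the ratio of (FPKM + 1). Without the pseudocount, Fgfbp1 and Ajap1, with FPKM of 2.03 and 1.35, were slightly past that limit.

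Of the 68 genes, 19 share their listed locus with at least 1 other gene, and whether reads were assigned by strand for these FPKM is not given in the sources used here, so their values are less certain. Cep295nl has the locus of Timp2, whose FPKM was 25.7 in CTRL and 15.4 in IR12 (log2 ratio -0.70). Without the 19 genes, 3 of 47 were at least 2-fold higher, none was 2-fold lower and the median was -0.04. Across the 66 genes, which share both libraries and are not replicates, the log2 ratio had a Spearman's rho of -0.15 with the length of the locus, and -0.18 across all 13599 genes.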

How the data were processed

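The authors deposited FPKM for 32662 rat genes with Ensembl identifiers, in 1 column for CTRL and 1 for IR12. The submitters' processing notes name STAR 2.5.2b, Cuffdiff 2.2.0 and the build rn6; the annotation release and strand setting that Cuffdiff used are not given in the sources used here. The labels and the study's methods name a stranded total RNA kit; the design text names a stranded mRNA kit, and all of them name rRNA removal. FPKM gives no read counts. The lowest repeated FPKM at equal locus lengths under 1500 bases was 1.71 times as high in CTRL at 17 of 25 lengths. If values were scaled to mapped reads alone, IR12 was thus the deeper library. The paper also gives more reads for IR12 than for CTRL, at a ratio smaller than 1.71.

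A gene entered if it reached an FPKM of 1 in either library. Log2 ratios used a pseudocount of 1, and locus starts, taken to count from 0, were raised by 1. With 1 library per group, fold limits of 2 and 1.5 served as a description. The members and lists were chosen with earlier results of these data known. Members that reached an FPKM of 5 in either library could be named; in each family those with the highest FPKM and up to 4 of the highest and lowest ratios were, with every member past 2-fold. Members under FPKM 5 in both libraries were named with FPKM only, except Cep295nl, which was also set against the fold limits and its neighbors. Of each partner and marker list the highest FPKM, the highest and lowest ratio among the genes that entered and every gene past 2-fold were named. Neighbors, genes that share a locus, genes listed at 0 and Vim, the exception in its list, were named after their values were seen.

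Alternatives were a pseudocount of 0.1, the TPM scale, centring on the median gene, FPKM of at least 5 in either library or in CTRL, and no filter, with 2 added after seeing the data. The procedures were tested on simulated data. Promoters and gene types came from RefSeq (GRCr8) and were matched by symbol alone. Cep152 and Cep128 were not analysed here. Python 3.11.15, numpy 2.4.6, pandas 2.3.3 and matplotlib 3.10.9 were used.

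Values of a few genes of the rule are not reported here.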

Additional observations from a re-analysis of the deposited data

How the results depend on the processing

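Each group has 1 library, so no library could be left out. No paired analysis was possible because no test was made. A median was read as unchanged when it moved by less than 0.1 on the log2 scale and a count when it stayed within 1.5 times. Of the alternative values of 15 summary results, 96 stayed within these limits and 19 did not. The TPM scale gave most of the latter, since small RNAs take 67.9% of the summed FPKM in CTRL and 46.2% in IR12. It gave 10 genes of the rule at least 2-fold higher, 33 at least 1.5-fold higher and 0 at least 1.5-fold lower. Over all genes it gave 2817 and 436 at least 2-fold higher and lower, and 6897 and 713 at least 1.5-fold. The medians became 0.59 for the genes of the rule and for all genes, 0.70 for BBS, 0.70 for IFT, 0.53 for CEP and 0.57 for the photoreceptor cilium. The log2 ratio of Cep126 went from -0.60 to 0.0036.

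A pseudocount of 0.1 gave 1 gene of the rule at least 2-fold lower, Cep295nl. A minimum FPKM of 5, in either library or in CTRL, left 1 gene of the rule at least 1.5-fold lower, because Cep295nl no longer entered. It did so as well without the genes that share a locus. The minimum in CTRL gave 319 genes at least 2-fold higher and 1062 at least 1.5-fold higher, while those lower numbered 624 and 1305, as they did with the minimum in either library. Rescaling to the same sum without small RNAs, recognised by symbol after seeing the data, lowered the values of IR12 by 0.10 on the log2 scale and gave medians of -0.01 for BBS and -0.02 for IFT, so the sign of these medians is not settled. The leaving out of genes that share a locus was also chosen after seeing the data.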
